A study of Rattus norvegicus with 12 samples.

Results

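The endoplasmic reticulum (ER) genes described here are 39 named genes that fold secreted proteins, modify collagen, move proteins into and out of the ER, or act in the unfolded protein response. They were taken by gene symbol from a list that names them. The count files held 38 of the 39, among 17315 genes in all, and 37 passed the filter on low counts. They were read in 5 role groups, which are 7 general chaperones and folding enzymes, 12 collagen enzymes with the collagen chaperone, 5 genes of the translocon and of ER export, 7 stress sensors and transcription factors, and 8 stress-induced folding and degradation factors. Of Mia3, a cargo receptor for procollagen export, no value was analysed here. Crtap, a partner of the collagen prolyl 3-hydroxylase, had 1 count over all 12 libraries and was not tested, and whether the annotation used for counting bears on this was not tested.

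Polyadenylated RNA was sequenced from 3 kinds of cultured Sprague-Dawley rat cells described as Müller cells, the radial glia of the retina. SIRMu-1, sampled in 5 libraries between passage 6 and passage 20, became immortal without an introduced gene and stems from pups of postnatal day 2 to 4. The rMC-1 line (3 libraries, passages 23 to 26) stems from adult rats and carries the SV40 large T antigen. Pups of the age given for SIRMu-1 gave the primary cultures, sampled in 4 libraries at passage 3 or 4. The medium held 25 mM glucose throughout, and serum made up 20% of it for SIRMu-1 and primary cultures but 10% in the rMC-1 cultures. SIRMu-1 replicates 3 and 5 and all primary cultures, but no rMC-1 culture, also received amphotericin B (2.2 mg/L) together with the antibiotic gentamicin (87 mg/L). Each line is a single line, so the spread within it is that between cultures of 1 line. Between rMC-1 and primary cultures the line, donor age, passage, serum and drugs differ together and cannot be told apart. SIRMu-1 and primary cultures share serum and donor age and differ in line and passage, and in the drugs for 3 of the 5 SIRMu-1 cultures. The labels name the samples of a group biological replicates without saying which shared an animal or culture, so each p-value rests on differences among libraries whose origin may be partly technical.

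Secreted and membrane proteins enter the ER through the Sec61 channel and fold there with the help of chaperones such as BiP, the product of Hspa5, and of protein disulfide isomerases. Procollagen chains are in addition hydroxylated on proline and lysine, isomerized at proline, held as a triple helix by the chaperone HSP47, the product of Serpinh1, and packed into COPII carriers that are built by Sec23 and Sec24. When unfolded protein builds up, the sensors IRE1 (Ern1), PERK (Eif2ak3) and ATF6 act through the transcription factors XBP1, ATF4 and cleaved ATF6 to raise chaperones and degradation factors. Müller cells span the retina and are its main glia.

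ATF6 and XBP1 are known in mammals to act on an ER stress response element, so the promoters of the genes were read for it. RefSeq, on rat build GRCr8, gave a promoter of 250 bases before to 50 bases after the start for 31 of the 39 genes. Searched on both strands were the ER stress response element or ERSE (CCAAT, then 9 bases, then CCACG), ERSE-II (ATTGG, 1 base, CCACG), the UPR element (TGACG then TGG) and the core of the amino acid response element (TGATG, 1 base, AA). The ERSE stood in 7 of the 31 promoters (22.6%), against 21 of all 27457 rat promoters in the table (0.0765%). ERSE-II stood in 3 of the 31, against 15 of all promoters (0.0546%). The UPR element stood in 2 (Sec23a and Hyou1), against 175 of all (0.637%), and overlapped an ERSE-II in Hyou1. The amino acid core stood in 1 (Herpud1), against 1048 of all (3.82%). The elements of the 10 genes with an ERSE or ERSE-II are shown because they set the chaperones and stress-induced genes apart from the collagen enzymes, which have no match in the same window. Each is written in the direction of its motif with the fixed bases in capitals, and Hsp90b1 and Hyou1 hold a pair.
Hspa5 ERSE: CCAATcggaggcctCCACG
Hsp90b1 ERSE, forward: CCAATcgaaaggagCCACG
Hsp90b1 ERSE, reverse: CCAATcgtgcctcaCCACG
Calr ERSE, reverse: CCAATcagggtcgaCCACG
Canx ERSE: CCAATcatcacgctCCACG
Xbp1 ERSE: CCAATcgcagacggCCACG
Dnajc3 ERSE: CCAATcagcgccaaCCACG
Creld2 ERSE, reverse: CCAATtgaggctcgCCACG
Herpud1 ERSE-II: ATTGGgCCACG
Dnajb11 ERSE-II: ATTGGcCCACG
Hyou1 ERSE-II, reverse, farther from the start: ATTGGcCCACG
Hyou1 ERSE-II, reverse, nearer the start: ATTGGgCCACG

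By role, an ERSE or ERSE-II stood in 4 of 5 general chaperone promoters, 5 of 7 promoters of stress-induced factors, 1 of 5 promoters of sensors and transcription factors (Xbp1), 0 of 11 collagen enzyme promoters and 0 of 3 promoters of the translocon and export genes. A match is a description of these letters, and no match says only that they are not in this window. The 250 bases before the start are given for 5 genes with an element and, for contrast, for the collagen prolyl hydroxylase gene P4ha2, a set chosen after their values were seen. Hspa5, Xbp1 and Dnajc3 fell in rMC-1, Creld2 rose there, and Herpud1 fell in SIRMu-1. Capitals mark the fixed bases of the ERSE or ERSE-II, on the reverse strand in Creld2, and P4ha2 has none.
Hspa5, chr3:38452766-38453015 (plus strand): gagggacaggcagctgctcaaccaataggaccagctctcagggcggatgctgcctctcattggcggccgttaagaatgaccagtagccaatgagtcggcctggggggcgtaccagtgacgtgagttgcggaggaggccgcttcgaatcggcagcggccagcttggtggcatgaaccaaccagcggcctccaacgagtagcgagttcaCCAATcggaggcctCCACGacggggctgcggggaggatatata
Xbp1, chr14:84604373-84604622 (plus strand): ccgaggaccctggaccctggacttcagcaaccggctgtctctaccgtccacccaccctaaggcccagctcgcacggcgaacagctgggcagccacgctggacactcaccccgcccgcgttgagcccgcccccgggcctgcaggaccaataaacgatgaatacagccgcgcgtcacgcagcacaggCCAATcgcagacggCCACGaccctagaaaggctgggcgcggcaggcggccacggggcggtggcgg
Dnajc3, chr15:102432417-102432666 (plus strand): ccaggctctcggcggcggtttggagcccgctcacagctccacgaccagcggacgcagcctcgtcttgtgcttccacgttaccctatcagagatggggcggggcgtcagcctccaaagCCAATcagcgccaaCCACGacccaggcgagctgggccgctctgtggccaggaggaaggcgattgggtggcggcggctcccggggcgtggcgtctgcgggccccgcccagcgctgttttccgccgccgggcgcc
Creld2, chr7:121789134-121789383 (plus strand): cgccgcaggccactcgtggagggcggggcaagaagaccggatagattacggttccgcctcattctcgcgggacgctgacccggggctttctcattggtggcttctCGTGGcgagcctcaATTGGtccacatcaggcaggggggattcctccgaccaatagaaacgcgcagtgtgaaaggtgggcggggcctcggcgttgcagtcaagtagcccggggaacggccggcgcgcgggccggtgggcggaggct
Herpud1, chr19:10614708-10614957 (minus strand): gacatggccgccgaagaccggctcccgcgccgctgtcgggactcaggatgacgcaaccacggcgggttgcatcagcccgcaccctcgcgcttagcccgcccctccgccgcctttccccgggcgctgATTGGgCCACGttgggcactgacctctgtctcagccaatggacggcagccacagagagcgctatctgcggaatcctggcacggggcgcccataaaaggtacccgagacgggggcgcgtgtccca
P4ha2, chr10:38743644-38743893 (plus strand): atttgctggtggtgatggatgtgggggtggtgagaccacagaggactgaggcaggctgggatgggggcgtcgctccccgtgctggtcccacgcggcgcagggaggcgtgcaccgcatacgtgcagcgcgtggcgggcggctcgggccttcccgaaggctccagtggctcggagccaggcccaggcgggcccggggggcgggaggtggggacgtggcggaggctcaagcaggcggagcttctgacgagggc

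Reads in genes came to 26349346 to 36730443 per SIRMu-1 library, 27351014 to 38125630 per rMC-1 library and 22582345 to 29812705 per primary library. The share of all gene counts held by the top 10 genes was 13.7% to 18.2% in SIRMu-1, 4.01% to 4.31% in rMC-1 and 12.8% to 22.9% in primary cultures. The TMM scaling factors were 1.26 to 1.28 in rMC-1 and 0.839 to 1.01 in the other libraries. Scaling by library totals in place of TMM factors moved the median log2 fold change of all genes by 0.47 for rMC-1 over primary, by -0.45 for SIRMu-1 over rMC-1 and by 0.03 for SIRMu-1 over primary. TMM factors are edgeR's correction for libraries in which a few genes take much of the reads. Levels are given as CPM, a gene's reads relative to the TMM-corrected total of its library. Fold changes are relative to the TMM-scaled libraries, and levels are set side by side within a gene and not between genes, since no transcript lengths were used. The defining Müller cell channel genes Aqp4 and Kcnj10 averaged at most 0.138 CPM in any group. Summed levels of 12 Müller glia markers ran from 3569.7 to 4694 CPM in SIRMu-1, 1707 to 1794 CPM in rMC-1 and 7966 to 8932 CPM in primary cultures. Of 10 markers tested, 3 were higher (30%) and 4 lower (40%) in SIRMu-1 than in rMC-1 (edgeR adjusted p under 0.05, median log2 fold change -0.22). These shares are near the 32.7% higher and 30.5% lower of all genes tested. Against primary cultures 7 (70%) were lower in each line, beside 24.4% of all genes for SIRMu-1 and 38.9% for rMC-1. None was higher in SIRMu-1 and 1 (10%) was in rMC-1, beside 21.7% and 31.9% of all genes. Of the 12 markers, 4 were at 0 throughout SIRMu-1 and 2 throughout rMC-1. Summed levels of 10 cycling cell genes ran from 297 to 1502 CPM in SIRMu-1, 4173 to 4598 CPM in rMC-1 and 101 to 139 CPM in primary cultures. Because the samples are bulk RNA, fewer cells of a type and less RNA per cell cannot be told apart.

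rMC-1 was first compared with the primary cultures. Of the 37 tested genes, 27 were lower in rMC-1 and 1, Creld2, was higher, while 9 did not pass an edgeR adjusted p of 0.05. Over all 11321 genes tested, 38.9% were called lower and 31.9% higher in rMC-1. The median log2 fold change was -0.79 over the 37 genes and -0.15 over all genes. At least a 2-fold difference was reached by 14 of the 37, all lower in rMC-1, where 27.9% of all genes were called at least 2-fold lower. In 24 of the 37 every rMC-1 library lay below every primary library, against 38.2% of all genes, and in 3 every rMC-1 library lay above, against 32.7%. With library totals as the scale 14 were called lower and 6 higher, and over all genes the calls turned to 3130 lower and 5077 higher, against 4403 lower and 3614 higher with TMM factors. With 1 library left out the lower calls numbered 19 to 28, the fewest without rMC-1 replicate 3, and 20 without rMC-1 replicate 2.

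**Figure D1:**
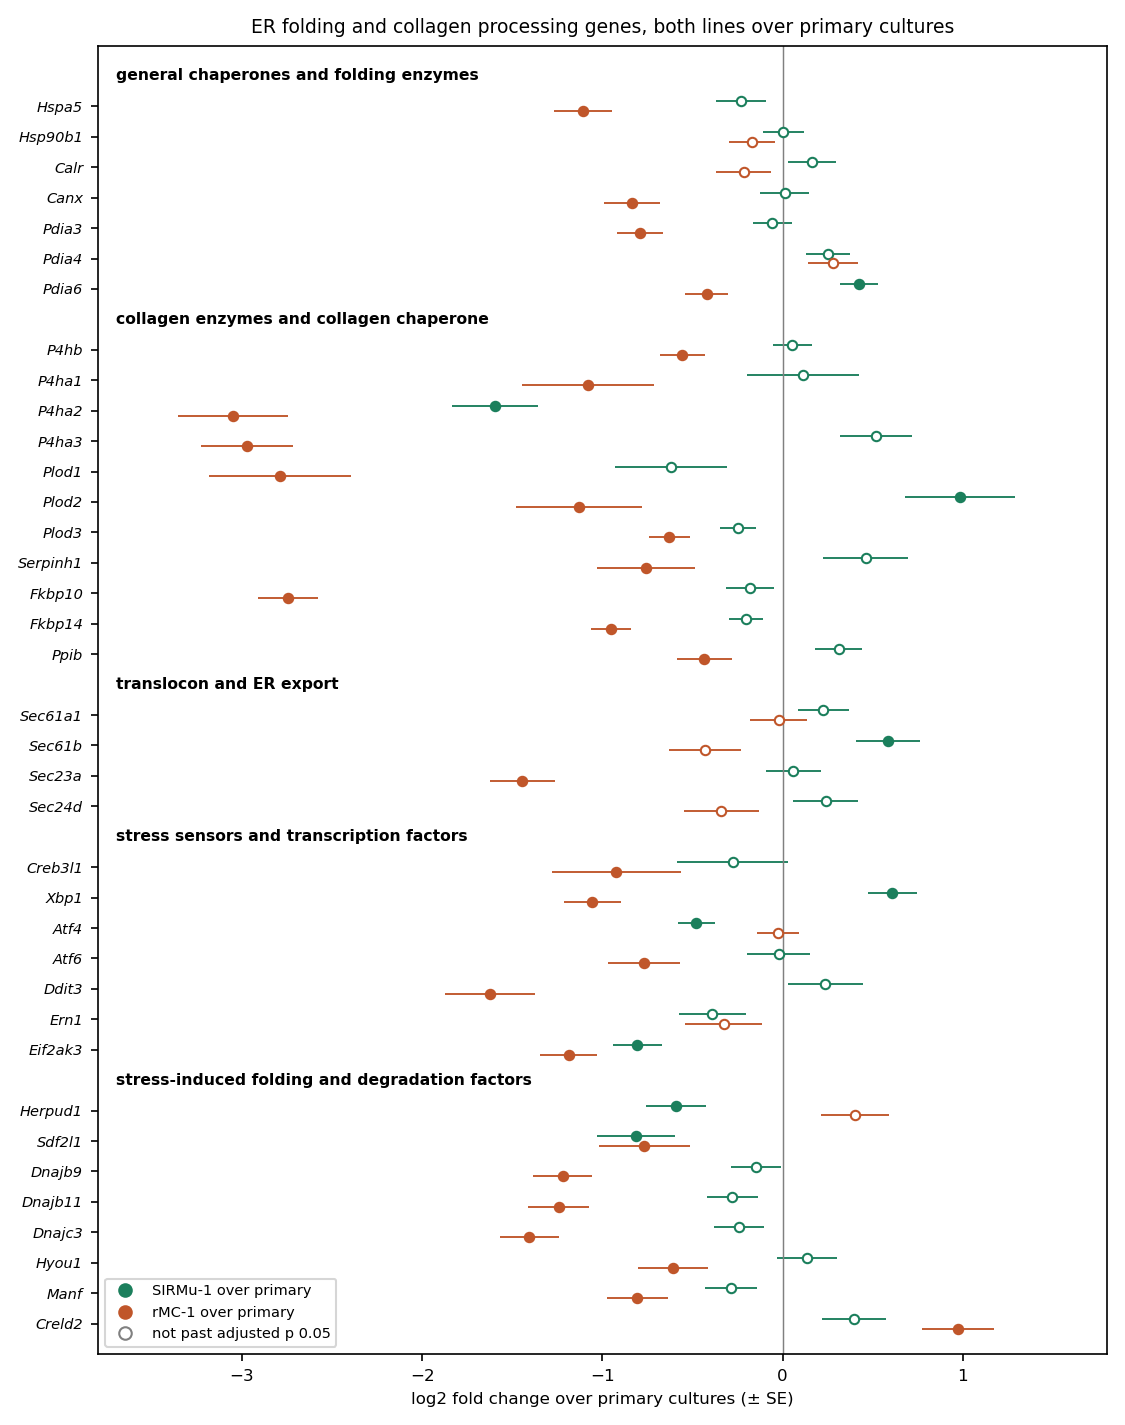
Log2 fold change over primary cultures with its standard error (horizontal axis) for the 37 tested genes in 5 role groups, SIRMu-1 in green and rMC-1 in orange, from the edgeR fit. Filled points passed an adjusted p of 0.05 and open points did not. The 11 orange points of the collagen group all lie left of 0, between -0.43 and -3.05, while the green points of that group lie on both sides of 0.

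The collagen group was lower in rMC-1 as a whole, with all 11 tested genes called and a median log2 fold change of -1.08. With library totals as the scale 5 of the 11 were still called lower and none higher, with a median of -0.57. The fewest lower calls with a library left out were 7, without rMC-1 replicate 3, where P4ha1, Plod2, Serpinh1 and Ppib were lost, and 8 remained without rMC-1 replicate 2 or without primary replicate 3. The 12 genes together summed to 8277 to 11742 CPM in SIRMu-1, 4121 to 4454 CPM in rMC-1 and 6679 to 10082 CPM in primary cultures.

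The catalytic chains of prolyl 4-hydroxylase, which stabilizes the collagen helix, differed by chain. P4ha2 had 96.0, 89.6 and 83.5 CPM in rMC-1, against 916, 951, 492 and 606 CPM in primary cultures. Its rMC-1 libraries all lay far below the lowest primary library, with a log2 fold change of -3.05 ± 0.31 (SE, edgeR adjusted p = 4.48e-06), or 8.27-fold lower. P4ha3 had 26.7, 31.8 and 19.5 CPM in rMC-1, against 245, 193, 197 and 181 CPM in primary cultures. It too was separated without overlap, at -2.97 ± 0.25 (adjusted p = 1.42e-06). P4ha1 had 435, 341 and 389 CPM in rMC-1, against 557, 706, 1423 and 596 CPM in primary cultures. The groups did not overlap and the fold change was -1.08 ± 0.36 (adjusted p = 0.0193), but primary replicate 3 set much of the mean, and without it the value was -0.68 (adjusted p = 0.053). The P4ha1 call was also lost without rMC-1 replicate 2 or 3 (-0.915 and -1.002), with library totals (-0.57) and with file-name codes summed (-1.10, adjusted p = 0.065). P4hb, the disulfide isomerase that is also the shared subunit of the enzyme, had 1228, 1077 and 1150.3 CPM in rMC-1, against 1642, 1584, 1967 and 1579 CPM in primary cultures. It was lower in all 3 rMC-1 libraries by -0.56 ± 0.12 on the log2 scale (adjusted p = 0.00163), and with library totals the value was -0.08 and not past the threshold.

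The lysyl hydroxylases, which prepare collagen for glycosylation and crosslinking, were lower in the same comparison. Plod1 averaged 50.9 ± 5.23 CPM in rMC-1 (SD, n = 3) and 352 ± 104 CPM in primary cultures (SD, n = 4), a log2 fold change of -2.79 ± 0.39 (adjusted p = 6.17e-05). Plod2, which hydroxylates the collagen telopeptides, averaged 443 ± 39 CPM in rMC-1 and 969.6 ± 228 CPM in primary cultures (-1.13 ± 0.35, adjusted p = 0.012). Plod3, which also has glycosyltransferase activity, averaged 201 ± 15.1 CPM in rMC-1 and 311 ± 29.0 CPM in primary cultures (-0.63 ± 0.12, adjusted p = 0.000446). The rMC-1 libraries lay below every primary library for all 3 genes. The Plod2 and Plod3 calls were lost with library totals, at -0.66 and -0.15, and the Plod2 call also without rMC-1 replicate 3 (-1.01, adjusted p = 0.054).

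Serpinh1, the collagen-specific chaperone HSP47, had 1527, 1529 and 1605 CPM in rMC-1, against 3164, 2564, 3471 and 1315 CPM in primary cultures. Primary replicate 4 lay below all rMC-1 libraries, so the groups overlapped, and the fold change of -0.76 ± 0.27 (adjusted p = 0.0256) passed the threshold narrowly. It was lost with any 1 of the rMC-1 libraries or with primary replicate 1 or 3 left out, with values from -0.60 to -0.71. It was also lost with library totals (-0.26, adjusted p = 0.359), with a replicate block (-0.79, adjusted p = 0.051), with only the groups compared (-0.70, adjusted p = 0.079) and with file-name codes summed (-0.60, adjusted p = 0.236). Fkbp10, the ER prolyl isomerase FKBP65 that works on procollagen with HSP47, was lower by far more. It averaged 67.6 ± 7.85 CPM in rMC-1 (SD, n = 3) and 453 ± 63.2 CPM in primary cultures (SD, n = 4), a log2 fold change of -2.74 ± 0.17 (adjusted p = 1.52e-07). The related isomerase gene Fkbp14 averaged 49.2 ± 5.67 CPM in rMC-1 and 95.1 ± 9.59 CPM in primary cultures (-0.95 ± 0.11, adjusted p = 1.35e-05). Ppib, the isomerase cyclophilin B, averaged 269.8 ± 18.8 CPM in rMC-1 and 364 ± 61.7 CPM in primary cultures (-0.43 ± 0.15, adjusted p = 0.0222). The Ppib groups overlapped, its call was lost without any of the rMC-1 libraries or without primary replicate 1 or 3 (values -0.30 to -0.40), and with library totals its sign turned (0.04).

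**Figure D2:**
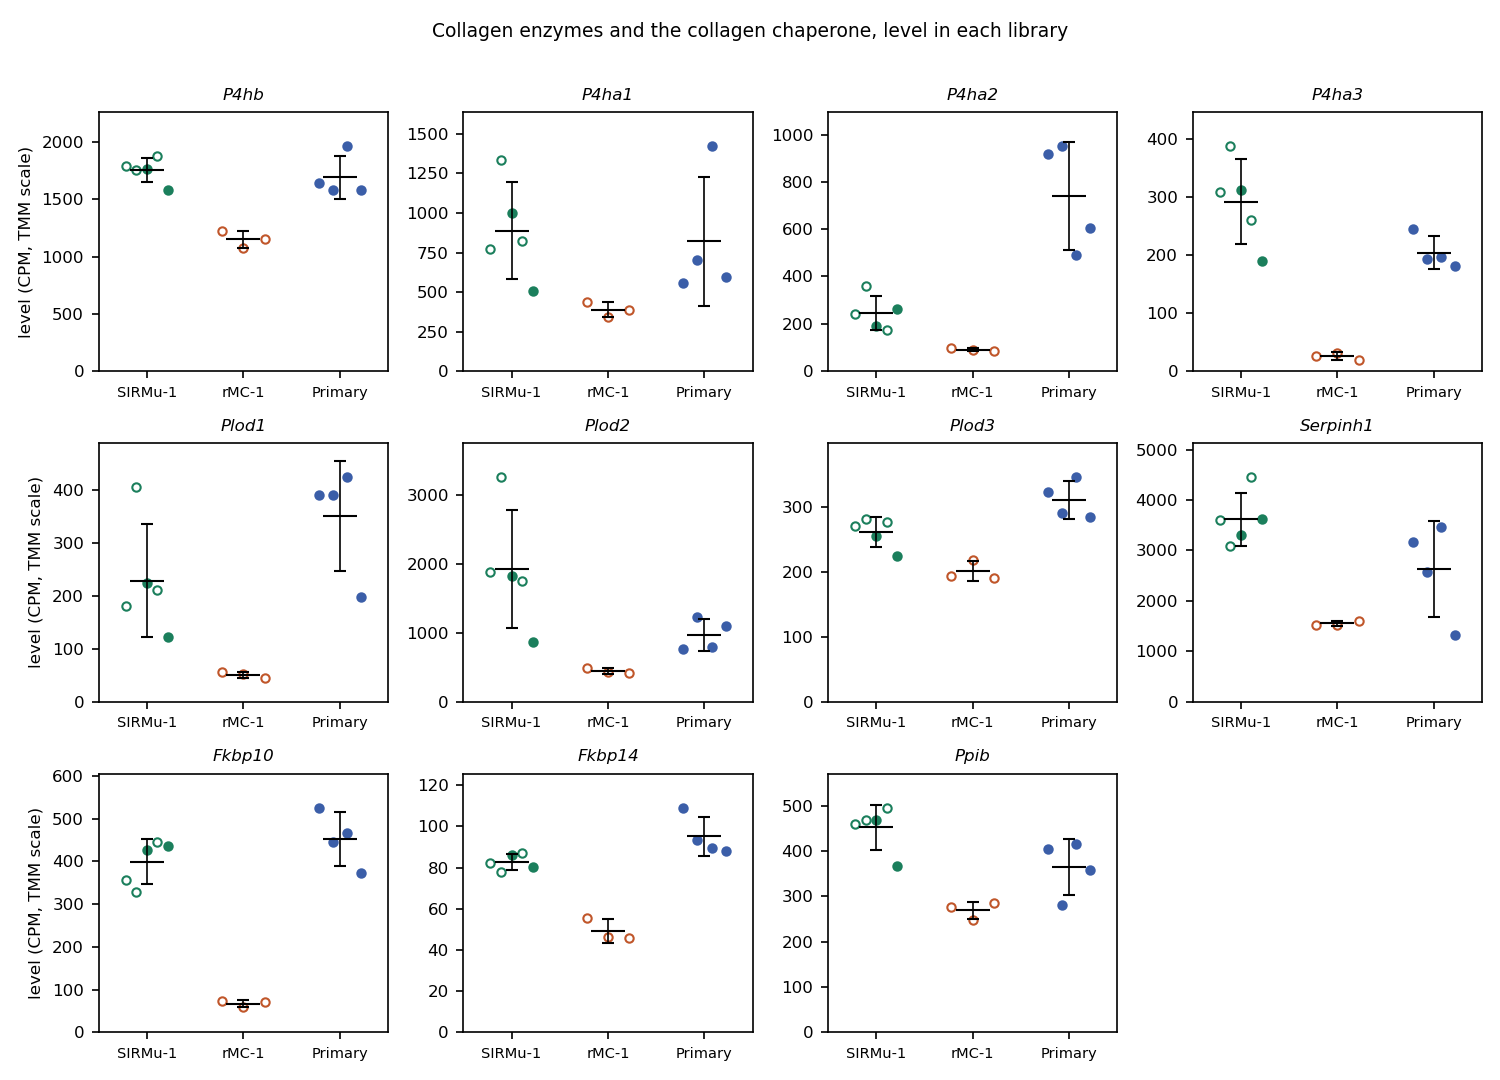
Level in CPM on the TMM scale (vertical axis, from 0) of the 11 tested collagen enzymes and the collagen chaperone in each library of SIRMu-1, rMC-1 and primary cultures, with the mean and SD as bars. Filled points are cultures with gentamicin and amphotericin B and open points are cultures without. P4ha2 is high in primary cultures alone, while P4ha3, Plod1 and Fkbp10 are low in rMC-1 alone.

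The collagen genes themselves, the substrates of these enzymes, were lower in rMC-1 in 12 of 12 tested, with a median log2 fold change of -3.65. Their summed level was 51450.3 to 71161 CPM in SIRMu-1, 5381 to 7317 CPM in rMC-1 and 42272 to 136401 CPM in primary cultures. The largest differences were in Col8a1, a short-chain network collagen (-8.27 ± 0.79), and Col4a1, a basement membrane collagen (-4.99 ± 0.35), both with rMC-1 lower (adjusted p = 3.26e-06 and 3.71e-07). Col1a1 averaged 3214 CPM in rMC-1 and 56504 CPM in primary cultures. Col1a2, the partner chain, averaged 0.107 CPM in rMC-1 and 1.67 CPM in primary cultures, which is near the floor. Whether the annotation used for counting bears on the low Col1a2 values was not tested, so they do not show that the chain is absent. Col1a2 is counted among the 12 substrates and among the fibroblast markers. Fibroblast markers, which share collagens with this list, were lower in rMC-1 in 10 of 10 (summed level 3392 to 4923 CPM, against 31210.0 to 137329 CPM in primary cultures), and none of the 10 was at 0 throughout a group. Pericyte and smooth muscle markers were lower in rMC-1 in 7 of 8 tested (1441 to 3666 CPM, against 10102 to 14934 CPM in primary cultures). The part of either cell type in the collagen enzyme result was not tested. Of 18 other genes of collagen modification and maturation, 17 were lower in rMC-1 and none higher, with a median of -2.16. Among them the procollagen protease genes Adamts14 and Tll1 were lowest at -6.53 ± 0.95 and -5.72 ± 0.77 (adjusted p = 7.72e-05 and 4.52e-05). With library totals 14 of the 18, and 11 of the 12 substrates, were still called lower and none higher.

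The general chaperones were lower in rMC-1 in 4 of 7 and higher in none, with a median of -0.42. Hspa5, the ER Hsp70 chaperone BiP, had 1251, 1000.3 and 1082 CPM in rMC-1, against 2037, 2181, 2891 and 2469 CPM in primary cultures. All 3 rMC-1 libraries lay below the primary libraries, with a log2 fold change of -1.11 ± 0.16 (adjusted p = 8.12e-05), and the call held with library totals. Canx, the membrane-bound lectin chaperone calnexin, had 753, 752 and 794 CPM in rMC-1, against 1154, 1380.4, 1677 and 1261 CPM in primary cultures (-0.84 ± 0.16, adjusted p = 0.000519). The soluble lectin chaperone calreticulin, from Calr, had 1868, 1335 and 1581 CPM in rMC-1, against 1875, 1668, 1995 and 1863 CPM in primary cultures. Its groups overlapped and the difference did not pass (-0.21 ± 0.15, adjusted p = 0.222).

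Of the disulfide isomerases, Pdia3, which works with both lectin chaperones, averaged 804 ± 97.5 CPM in rMC-1 (SD, n = 3) and 1391 ± 139 CPM in primary cultures (SD, n = 4), lower by -0.79 ± 0.13 on the log2 scale (adjusted p = 0.000169). Pdia6 was lower in rMC-1 by less (-0.42 ± 0.12, adjusted p = 0.00777), a call lost without rMC-1 replicate 2 or 3 (-0.31 and -0.35). Pdia4 did not pass (0.28 ± 0.14, adjusted p = 0.0916), though its rMC-1 libraries of 673, 529.6 and 573 CPM all lay above the highest primary library of 527 CPM. Hsp90b1, the ER Hsp90 chaperone GRP94, averaged 1606 ± 82.5 CPM in rMC-1 and 1804 ± 248 CPM in primary cultures (-0.17 ± 0.13, adjusted p = 0.253). With library totals 2 of the 7 general chaperones were called lower and 2 higher, with Hsp90b1 at 0.31 and Pdia4 at 0.75, both called, and Pdia3 at -0.32 (adjusted p = 0.052) and Pdia6 at 0.05, both not called.

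Of the translocon and export genes 1 of 4 (25%) was lower in rMC-1, against 38.9% of all genes. Sec23a, the inner COPII coat subunit needed for collagen export, had 66.5, 65.4 and 63.5 CPM in rMC-1, against 155, 216, 208 and 129.8 CPM in primary cultures. The rMC-1 libraries lay close together and well below the primary ones, at -1.44 ± 0.18 (adjusted p = 2.66e-05). Sec24d, a COPII cargo-binding subunit, had a value of -0.34 ± 0.21 (adjusted p = 0.157), past the threshold only without primary replicate 4 among the libraries left out (-0.48, adjusted p = 0.031). The Sec61 channel genes did not pass, with -0.02 ± 0.16 for Sec61a1 (adjusted p = 0.906) and -0.43 ± 0.20 for Sec61b (adjusted p = 0.0706). Without primary replicate 2 the Sec61b value was -0.55 (adjusted p = 0.023).

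The stress sensors and transcription factors were lower in rMC-1 in 5 of 7, with a median of -0.92. Ddit3, the stress-induced transcription factor CHOP, had 21.1, 40.0 and 28.9 CPM in rMC-1, against 81.3, 72.3, 103 and 113 CPM in primary cultures. It was the furthest from 0 in this role group, with no overlap, at -1.62 ± 0.25 (adjusted p = 0.000117). Xbp1, whose mRNA is spliced by IRE1 to give an active factor, had 66.1, 43.6 and 51.7 CPM in rMC-1, against 116, 117, 116 and 99.0 CPM in primary cultures. Here too the groups did not overlap (-1.06 ± 0.16, adjusted p = 9.41e-05). The counts per gene do not separate spliced from unspliced Xbp1.

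Eif2ak3, the kinase PERK, had 43.2, 40.4 and 36.3 CPM in rMC-1, against 84.6, 87.4, 75.0 and 117 CPM in primary cultures, at -1.19 ± 0.16 (adjusted p = 3.99e-05). Atf6, the sensor that is cut to a transcription factor, averaged 77.7 ± 9.21 CPM in rMC-1 (SD, n = 3) and 132 ± 40.6 CPM in primary cultures (SD, n = 4), at -0.77 ± 0.20 (adjusted p = 0.0047). The Atf6 call was lost with library totals (-0.28, adjusted p = 0.175) and once libraries of a shared file-name code were summed (-0.65, adjusted p = 0.062). Creb3l1, a related membrane-bound factor that acts on collagen genes in mouse bone, had 78.6, 80.0 and 80.7 CPM in rMC-1, against 214, 175, 157 and 57.2 CPM in primary cultures. Primary replicate 4 lay below rMC-1, and the Creb3l1 call (-0.92 ± 0.36, adjusted p = 0.037) was lost without any of the rMC-1 libraries or without primary replicate 1, 2 or 3, with values of -0.71 to -0.90. With library totals it was -0.42 (adjusted p = 0.292).

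Atf4 and Ern1 were the genes of that role group that did not pass. Atf4, the factor whose translation rises when PERK is active, had 716, 753 and 855 CPM in rMC-1, against 835, 779.9, 721 and 814 CPM in primary cultures. These ranges overlapped fully, at -0.02 ± 0.12 (adjusted p = 0.861, 95% interval -0.29 to 0.24), and with library totals the value was 0.44 and past the threshold. Ern1, the sensor IRE1, averaged 19.4 ± 2.72 CPM in rMC-1 and 24.3 ± 6.76 CPM in primary cultures (-0.33 ± 0.21, adjusted p = 0.187), and passed without primary replicate 1 (-0.50, adjusted p = 0.022). Of 18 tested targets of the PERK and ATF4 branch outside the 39 genes, 13 were higher (72.2%) and 2 lower (11.1%) in rMC-1, with a median of 1.20. Over all genes 31.9% were called higher and 38.9% lower, with a median of -0.15. The serine synthesis gene Psat1 (3.53 ± 0.31, adjusted p = 1.55e-06) and the cystine transporter gene Slc7a11 (3.29 ± 0.41, adjusted p = 2.38e-05) were the highest. The lipoprotein receptor gene Vldlr (-1.59 ± 0.48, adjusted p = 0.0105) and Sesn2 (-0.68 ± 0.23, adjusted p = 0.0209) were lower. The cycling cell genes were also higher in rMC-1 in 10 of 10, and their part in the level of these targets was not tested.

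**Figure D3:**
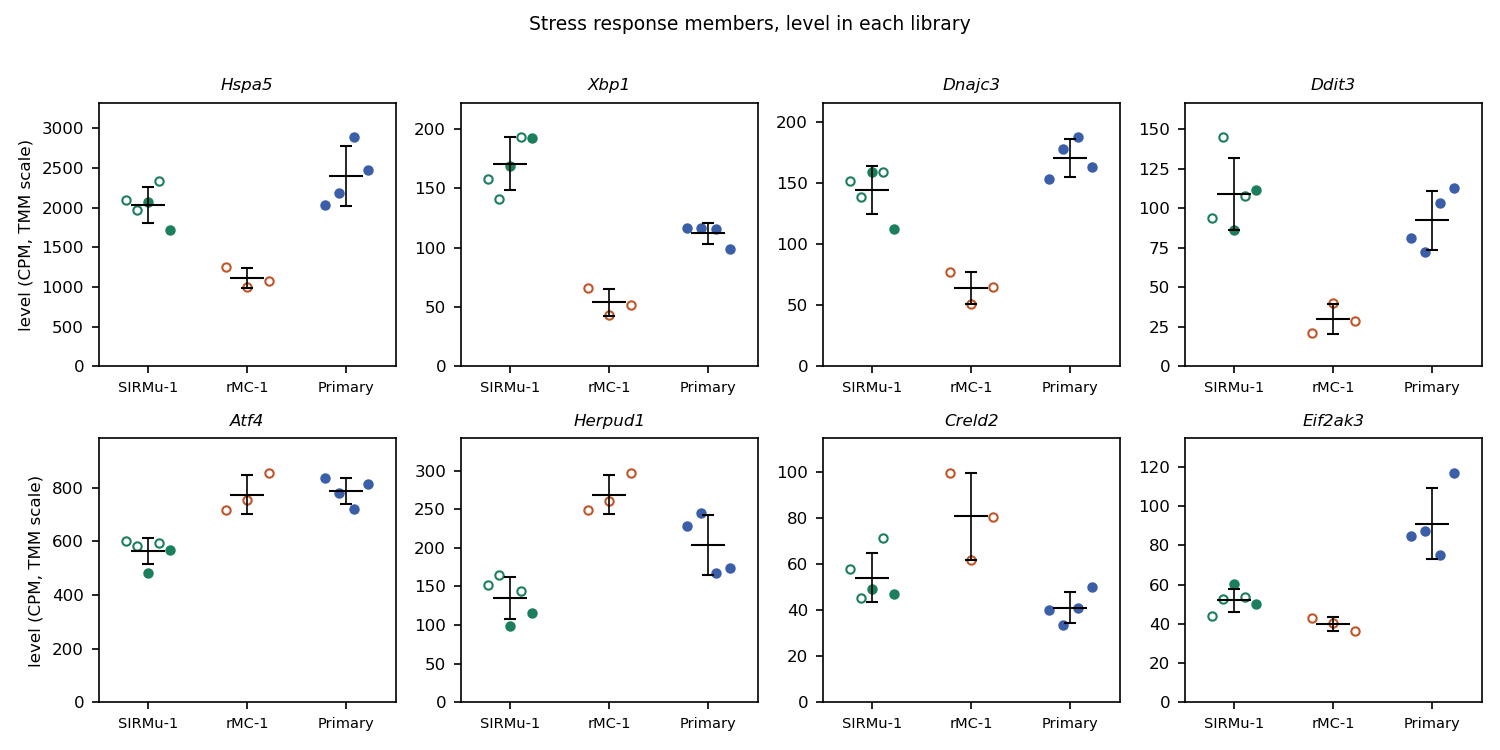
Level in CPM on the TMM scale (vertical axis, from 0) of 8 genes of the unfolded protein response in each library of SIRMu-1, rMC-1 and primary cultures, with the mean and SD as bars, filled points for cultures with gentamicin and amphotericin B and open points for those without. Hspa5, Xbp1, Dnajc3 and Ddit3 are low in rMC-1, Creld2 is high there, Atf4 and Herpud1 are low in SIRMu-1, and Eif2ak3 is high in primary cultures.

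Of the stress-induced folding and degradation factors 6 of 8 were lower in rMC-1 and 1 was higher, with a median of -0.79. Dnajc3, the BiP cochaperone p58IPK, had 77.3, 51.2 and 64.7 CPM in rMC-1, against 153, 178, 188 and 163 CPM in primary cultures, at -1.41 ± 0.16 (adjusted p = 1.42e-05). Dnajb11, the BiP cochaperone ERdj3, had 122, 76.9 and 96.9 CPM in rMC-1, against 240.2, 211, 270.1 and 212 CPM in primary cultures, at -1.24 ± 0.17 (adjusted p = 4.3e-05). Neither gene's groups overlapped, and both calls held with library totals. The third J-domain gene, Dnajb9 (ERdj4), averaged 27.3 ± 4.24 CPM in rMC-1 (SD, n = 3) and 63.5 ± 10.9 CPM in primary cultures (SD, n = 4), at -1.22 ± 0.16 (adjusted p = 4.02e-05).

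The smaller differences in that role group were those of Manf, a secreted stress-induced factor (-0.81 ± 0.17, adjusted p = 0.00118), Sdf2l1, a partner of ERdj3 (-0.77 ± 0.25, adjusted p = 0.0171), and Hyou1, a large Hsp70-related chaperone (-0.61 ± 0.19, adjusted p = 0.0144). The calls of Sdf2l1 and Hyou1 were lost without rMC-1 replicate 2 (-0.43 and -0.44) or replicate 3 (-0.67 and -0.49). With library totals none of these 3 calls held, at -0.34 for Manf, -0.29 for Sdf2l1 and -0.13 for Hyou1. Creld2, a secreted stress-induced disulfide isomerase, went the other way. It had 99.6, 62.0 and 80.7 CPM in rMC-1, against 40.3, 33.5, 40.8 and 50.2 CPM in primary cultures, higher in all 3 rMC-1 libraries at 0.97 ± 0.20 (adjusted p = 0.000953). Herpud1, a membrane protein of ER-associated degradation, had 248, 261 and 297 CPM in rMC-1, against 228, 245, 167 and 174 CPM in primary cultures. All rMC-1 libraries lay above the primary ones, but the difference did not pass (0.40 ± 0.19, adjusted p = 0.0738). It passed without primary replicate 2 (0.50, adjusted p = 0.04) or without SIRMu-1 replicate 5, which enters the shared spread (0.47, adjusted p = 0.045).

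Among the 10 genes with an ERSE or ERSE-II in the promoter window, 6 were lower and 1 was higher in rMC-1. Among the 19 tested genes with a promoter but neither element, 16 were lower and none higher. Over all genes tested, 38.9% were called lower and 31.9% higher. The set without an element holds every tested collagen enzyme with a promoter, each of them called lower. Element and role group therefore cannot be told apart in this split, and the part of the element was not tested. Hspa5, Xbp1 and Dnajc3, whose elements are printed above, were lower in rMC-1, as was P4ha2, which lacks one. Creld2, with an element on the reverse strand, was higher.

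SIRMu-1 was next compared with the same primary libraries, so both comparisons share them. Of the 37 tested genes, 4 were higher in SIRMu-1 (Pdia6, Plod2, Xbp1 and Sec61b), 5 were lower (P4ha2, Eif2ak3, Atf4, Herpud1 and Sdf2l1) and 28 did not pass. Over all genes tested, 21.7% were called higher and 24.4% lower in SIRMu-1, beside 10.8% higher and 13.5% lower of the 37. The median log2 fold change was 0.01 over the 37 genes and -0.02 over all genes. P4ha2 alone was called with at least a 2-fold difference, where 22.4% of all genes were. In 3 of the 37 every SIRMu-1 library lay above every primary library, against 17.2% of all genes, and in 8 every SIRMu-1 library lay below, against 18.1%. With 1 library left out the lower calls numbered 5 to 8, the most without primary replicate 4. Restricted to the 2 SIRMu-1 cultures with the drugs, as in the primary cultures, 1 was called higher (Xbp1) and 4 lower. Pdia6 (0.34), Plod2 (0.48), Sec61b (0.50) and Sdf2l1 (-0.85) were not past the threshold there. Over all genes that setting called 1619 higher and 1796 lower of 11535, against 2454 and 2766 of 11321 with every SIRMu-1 culture. Fewer cultures and the drugs cannot be told apart in these lost calls.

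In the collagen group 1 of 11 was higher in SIRMu-1 and 1 lower, with a median of 0.05. P4ha2 had 243, 359, 189.8, 173 and 263 CPM in SIRMu-1, against 916, 951, 492 and 606 CPM in primary cultures. All 5 SIRMu-1 libraries lay below the primary ones, at -1.59 ± 0.24 (adjusted p = 0.000306), or 3.02-fold lower. The sister chain genes did not pass, with 0.52 ± 0.20 for P4ha3 (adjusted p = 0.0531) and 0.11 ± 0.31 for P4ha1 (adjusted p = 0.787). The P4ha3 value passed without SIRMu-1 replicate 5 (0.61, adjusted p = 0.013), without primary replicate 1 (0.61, adjusted p = 0.045) or without rMC-1 replicate 3 (0.50, adjusted p = 0.048).

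Plod2 had 1886, 3257, 1826, 1750.5 and 870.4 CPM in SIRMu-1, against 765, 1222, 788 and 1103 CPM in primary cultures. SIRMu-1 replicate 5, the culture of the highest passage, lay within the primary range, and replicate 2 lay far above the rest. The fold change of 0.98 ± 0.30 (adjusted p = 0.0197) was lost without primary replicate 1 (0.88, adjusted p = 0.059) or 3 (0.89, adjusted p = 0.051). Plod1 did not pass (-0.62 ± 0.31, adjusted p = 0.123), but did without SIRMu-1 replicate 2 (-0.93, adjusted p = 0.011) or primary replicate 4 (-0.82, adjusted p = 0.045).

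The shared subunit gene P4hb had 1796, 1757, 1767, 1884 and 1587 CPM in SIRMu-1, against 1642, 1584, 1967 and 1579 CPM in primary cultures. The groups overlapped (0.05 ± 0.11, adjusted p = 0.7, 95% interval -0.19 to 0.30). Serpinh1 had 3605, 3082, 3313, 4458 and 3630.4 CPM in SIRMu-1, against 3164, 2564, 3471 and 1315 CPM in primary cultures. This did not pass either (0.46 ± 0.24, adjusted p = 0.132), with an interval of -0.07 to 1.00. The other 4 genes of the group, Plod3, Fkbp10, Fkbp14 and Ppib, had log2 fold changes of -0.25 to 0.31 and did not pass. Ppib passed without SIRMu-1 replicate 5 (0.36, adjusted p = 0.034) or primary replicate 3 (0.38, adjusted p = 0.049), and Plod3 without primary replicate 4 (-0.29, adjusted p = 0.049) or rMC-1 replicate 2 (-0.26, adjusted p = 0.047). Of the 12 collagen substrates, 2 were lower in SIRMu-1, Col3a1 (-1.52 ± 0.42, adjusted p = 0.0114) and Col5a2 (-0.67 ± 0.17, adjusted p = 0.00785), and none was higher. Of the 18 other collagen modification genes 2 were higher (11.1%) and 5 lower (27.8%), against 21.7% and 24.4% of all genes. The higher ones were Adamts14 (2.27 ± 0.58, adjusted p = 0.00779) and the crosslinking enzyme gene Loxl4 (1.71 ± 0.57, adjusted p = 0.0279). The lower ones were led by the procollagen protease gene Adamts2 (-3.90 ± 0.50, adjusted p = 0.000117) and the ER channel gene Tmem38b (-1.46 ± 0.15, adjusted p = 3.2e-05).

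Of the 7 general chaperones Pdia6 alone passed. It had 774, 640.0, 699, 821 and 645 CPM in SIRMu-1, against 527, 476, 569 and 561 CPM in primary cultures, all 5 above, at 0.42 ± 0.10 (adjusted p = 0.00635), or 0.42 (adjusted p = 0.05029) with file-name codes summed. Hspa5 had 2102, 1969, 2074, 2337 and 1713 CPM in SIRMu-1, against 2037, 2181, 2891 and 2469 CPM in primary cultures (-0.23 ± 0.14, adjusted p = 0.19). Calr had 2189, 1828, 2149, 2383 and 1795 CPM in SIRMu-1, against 1875, 1668, 1995 and 1863 CPM in primary cultures (0.16 ± 0.13, adjusted p = 0.345). Both genes' groups overlapped, and the other 4 general chaperones had log2 fold changes of -0.06 to 0.25.

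Of the translocon and export genes Sec61b alone passed. Sec61b, the small channel subunit, had 164, 135, 164, 183 and 128 CPM in SIRMu-1, against 119, 77.4, 115 and 101 CPM in primary cultures. The groups did not overlap (0.58 ± 0.18, adjusted p = 0.0173), and without primary replicate 2, the lowest of the primary libraries, the value was 0.46 (adjusted p = 0.051). Of 22 other translocation and N-glycosylation genes 8 were higher in SIRMu-1 (36.4%) and 2 lower (9.09%), against 21.7% and 24.4% of all genes. The higher ones were led by Ssr2 of the translocon-associated complex (1.01 ± 0.16, adjusted p = 0.000422) and Srp68 of the signal recognition particle (0.95 ± 0.09, adjusted p = 1.54e-05). The 2 lower were the signal peptidase gene Sec11c (-1.02 ± 0.20, adjusted p = 0.00183) and Sec62 (-0.42 ± 0.11, adjusted p = 0.00991).

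Among the 7 stress sensors and transcription factors 1 was higher (14.3%) and 2 were lower (28.6%) in SIRMu-1, against 21.7% and 24.4% of all genes. Xbp1 had 158, 141, 169, 193 and 192 CPM in SIRMu-1, against 116, 117, 116 and 99.0 CPM in primary cultures. All 5 SIRMu-1 libraries lay above the primary ones, at 0.61 ± 0.14 (adjusted p = 0.00361). Eif2ak3 had 43.8, 52.6, 60.1, 53.8 and 49.97 CPM in SIRMu-1, against 84.6, 87.4, 75.0 and 117 CPM in primary cultures. It was lower without overlap (-0.81 ± 0.13, adjusted p = 0.000585). Atf4 had 599.7, 582, 481, 595 and 568 CPM in SIRMu-1, against 835, 779.9, 721 and 814 CPM in primary cultures. This was also a drop without overlap (-0.48 ± 0.10, adjusted p = 0.00262), which was not past the threshold once libraries of a shared file-name code were summed (-0.44, adjusted p = 0.059).

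Ddit3 had 93.9, 145, 86.2, 108 and 112 CPM in SIRMu-1, against 81.3, 72.3, 103 and 113 CPM in primary cultures (0.24 ± 0.21, adjusted p = 0.375). Creb3l1 had 105, 97.7, 101, 144 and 176 CPM in SIRMu-1, against 214, 175, 157 and 57.2 CPM in primary cultures (-0.28 ± 0.31, adjusted p = 0.488). Both overlapped, but without primary replicate 4 the Creb3l1 value was -0.55 (adjusted p = 0.041). Atf6 (-0.02 ± 0.17) and Ern1 (-0.39 ± 0.19) did not pass, and Ern1 did without primary replicate 1 (-0.56, adjusted p = 0.012). Of the 18 PERK and ATF4 targets 6 were higher in SIRMu-1 (33.3%) and 1 lower (5.56%), against 21.7% and 24.4% of all genes. Their median was 0.53, beside -0.02 over all genes. Psat1 (2.09 ± 0.27, adjusted p = 0.000129) and the serine synthesis gene Phgdh (1.54 ± 0.22, adjusted p = 0.000196) led the higher ones, and Atf3 was lower (-1.29 ± 0.34, adjusted p = 0.00893). The cycling cell genes were higher in SIRMu-1 in 10 of 10, and their part here was not tested.

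Of the stress-induced factors 2 of 8 (25%) were lower in SIRMu-1, near the 24.4% of all genes called lower. Herpud1 had 152, 164, 99.5, 144 and 116 CPM in SIRMu-1, against 228, 245, 167 and 174 CPM in primary cultures (-0.59 ± 0.17, adjusted p = 0.0123). Sdf2l1 had 16.5, 10.3, 12.3, 14.5 and 14.1 CPM in SIRMu-1, against 22.4, 20.5, 27.1 and 25.1 CPM in primary cultures (-0.81 ± 0.22, adjusted p = 0.00987). Neither overlapped, and the Herpud1 value was -0.49 (adjusted p = 0.093) once libraries of a shared file-name code were summed. The other 6 ran from -0.29 for Manf to 0.40 for Creld2 and did not pass.

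Both lines were also compared directly, on the libraries already used above. Of the 37 genes 28 were higher in SIRMu-1 than in rMC-1, 3 were lower (Creld2, Atf4 and Herpud1) and 6 did not pass, where 32.7% of all genes were called higher and 30.5% lower. The median log2 fold change was 0.75, against 0.03 over all genes, and 13 genes were called at least 2-fold higher, against 20.1% of all genes. With library totals 17 were higher and 4 lower. On that scale 2324 of all genes were called higher and 5227 lower, against 3702 and 3455 with TMM factors. In 27 of the 37 every SIRMu-1 library lay above every rMC-1 library, against 32.0% of all genes, and in 2 every one lay below, against 31.0%. With 1 library left out the higher calls ran from 22 to 29.

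All 11 collagen enzymes were higher in SIRMu-1 than in rMC-1, with a median of 1.22, and 7 of them kept the call with library totals. With 1 library left out 9 to 11 were called, since P4ha1 was lost without rMC-1 replicate 2 or 3 and Plod3 without rMC-1 replicate 1 or 3. In the same comparison 11 of 12 collagen substrates were higher in SIRMu-1 (median 2.93), against 32.7% of all genes. So were 7 of 10 fibroblast markers (median 3.81), 5 of 8 pericyte and smooth muscle markers (median 2.56) and 3 of 5 endothelial markers (median 5.27), with none lower. The median endothelial marker lay near the floor in both lines. Of the other marker lists, Müller glia had 3 of 10 higher and 4 lower, against 30.5% of all genes lower. Microglia and macrophage markers had 1 of 3 lower, retinal pigment epithelium markers 1 of 2 lower, and neither had a higher one. Of the cycling cell genes 9 of 10 were lower (median -2.17). The part of any of these cell types in the collagen enzyme difference was not tested. P4ha3 differed most, averaging 292 ± 73.1 CPM in SIRMu-1 (SD, n = 5) and 26.0 ± 6.20 CPM in rMC-1 (SD, n = 3), at 3.49 ± 0.26 (adjusted p = 7.35e-07). Fkbp10 (2.56 ± 0.16, adjusted p = 2.65e-07), Plod1 (2.17 ± 0.37, adjusted p = 0.000345) and Plod2 (2.11 ± 0.35, adjusted p = 0.00029) followed. Xbp1 was higher in SIRMu-1 by 1.66 ± 0.16 (adjusted p = 4.41e-06) and Ddit3 by 1.86 ± 0.24 (adjusted p = 4.96e-05). Atf4 was lower in SIRMu-1 than in rMC-1 by -0.46 ± 0.11 (adjusted p = 0.00335), with no overlap of its libraries. Herpud1 was lower by -0.99 ± 0.18 (adjusted p = 0.000454), again without overlap. Creld2 was lower by -0.58 ± 0.19 (adjusted p = 0.0188), with overlap, and without rMC-1 replicate 1 this was -0.48 (adjusted p = 0.063). Hsp90b1, Pdia4, Sec61a1 and Ern1 passed in none of the 3 comparisons between the groups.

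**Figure D4:**
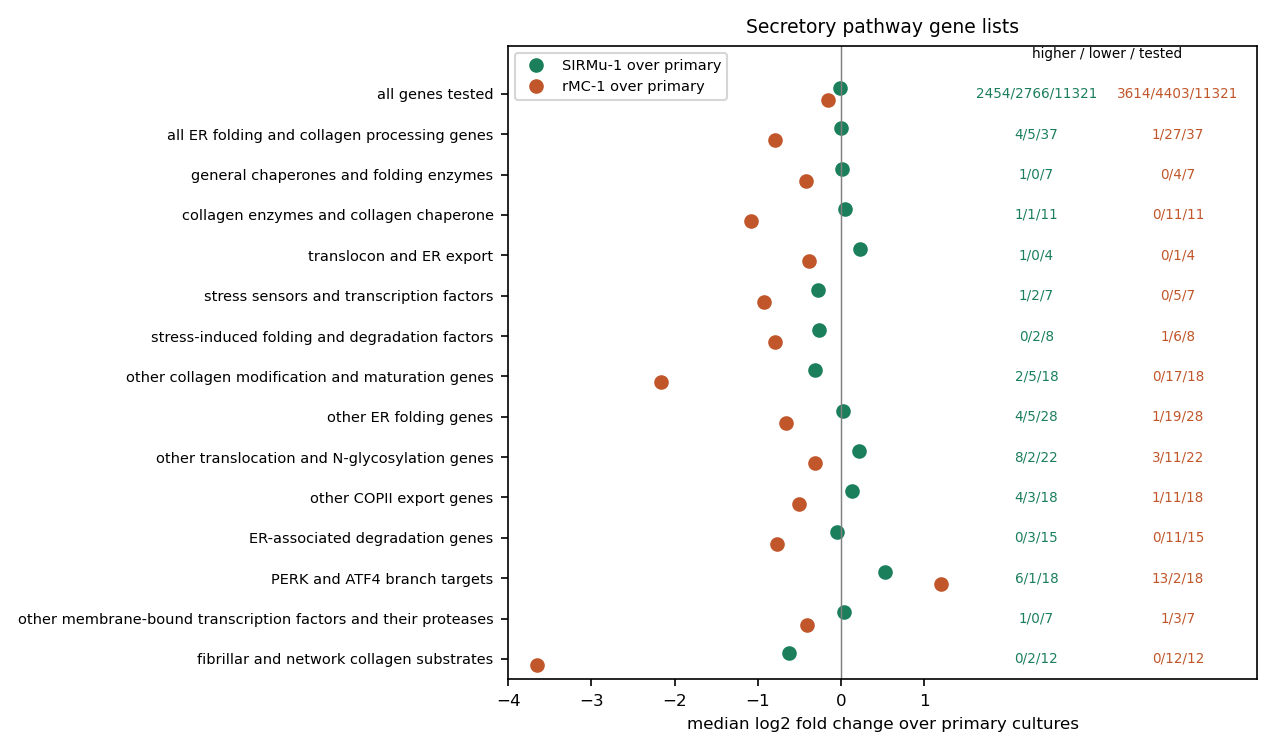
Median log2 fold change over primary cultures (horizontal axis) of the role groups and of 8 further lists of the secretory pathway, SIRMu-1 in green and rMC-1 in orange, with the numbers of genes called higher, called lower and tested at the right. The rMC-1 medians lie left of that of all genes (-0.15) in every list but the PERK and ATF4 targets (1.20), and the collagen substrates (-3.65) lie farthest left.

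The rest of the secretory pathway in rMC-1 was read from 5 further lists. Of 28 other ER folding genes 19 were lower and 1 higher, with a median of -0.67. Sil1, the nucleotide exchange factor of BiP (-3.04 ± 0.25, adjusted p = 1.07e-06), and the prolyl isomerase gene Fkbp7 (-2.58 ± 0.21, adjusted p = 8.77e-07) were lowest, and the isomerase gene Fkbp2 was higher (0.87 ± 0.19, adjusted p = 0.00167). Of 15 ER-associated degradation genes 11 were lower and none higher, with a median of -0.77, led by Derl3 (-4.15 ± 0.53, adjusted p = 3.06e-05) and Vimp (-2.22 ± 0.16, adjusted p = 3.87e-07). Of 18 other COPII export genes 11 were lower and 1 higher, with a median of -0.50. The cargo receptor pair Lman1 (-1.46 ± 0.17, adjusted p = 1.48e-05) and Mcfd2 (-1.43 ± 0.21, adjusted p = 7e-05) was lowest, and the coat subunit gene Sec24b was higher (0.39 ± 0.08, adjusted p = 0.00159).

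Of 22 translocation and N-glycosylation genes 11 were lower in rMC-1 and 3 higher, with a median of -0.31. Ssr4 (-1.91 ± 0.20, adjusted p = 6.69e-06) and Sec11c (-1.89 ± 0.25, adjusted p = 3.28e-05) were lowest, and Ssr2 (0.67 ± 0.18, adjusted p = 0.00482) and Srp68 (0.52 ± 0.10, adjusted p = 0.000509) were among the higher. Of 7 other membrane-bound transcription factors and their proteases 3 (42.9%) were lower, near the 38.9% of all genes called lower. These were led by Creb3 (-1.88 ± 0.26, adjusted p = 5.65e-05) and Atf6b (-1.10 ± 0.11, adjusted p = 4.69e-06). In the same list 1 was higher, the sterol regulator gene Srebf2 (2.13 ± 0.29, adjusted p = 4.15e-05). With library totals the counts of lower against higher genes became 11 and 5 for ER folding, 7 and 3 for degradation and 6 and 2 for COPII export. They became 7 and 8 for translocation and N-glycosylation, and 2 and 3 for the membrane-bound factors. On that scale 3130 of all 11321 genes were called lower and 5077 higher.

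**Figure D5:**
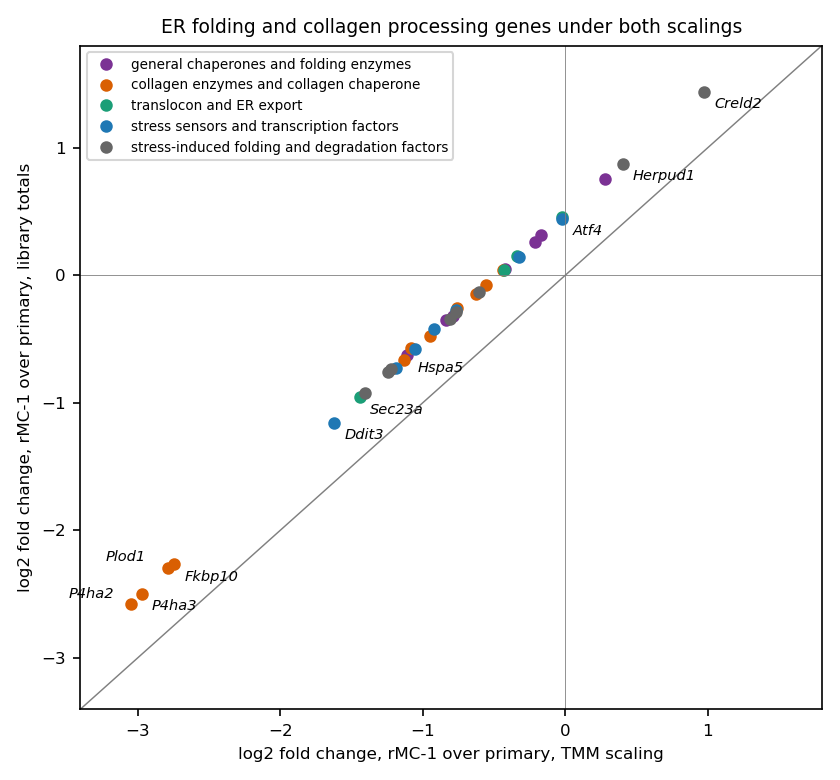
Log2 fold change of rMC-1 over primary cultures for the 37 genes with TMM factors (horizontal axis) and with library totals (vertical axis), coloured by role group, with the line of equal values in grey. Every point lies above the line, P4ha2, P4ha3, Plod1 and Fkbp10 stay below -2 on both scales, and Pdia4, Herpud1 and Creld2 are above 0 on both.

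The drugs were compared within SIRMu-1, between replicates 3 and 5 with gentamicin and amphotericin B and replicates 1, 2 and 4 without. None of the 37 genes passed (2 at an unadjusted p under 0.05 in edgeR and 3 in DESeq2), and 29 of the 37 had a negative value. Their median log2 fold change was -0.15, beside 0 over all genes. All 37 values come from the same few cultures, so a shared sign is not separate evidence for each gene. Over all genes edgeR called 0 of 11321, with 433 at an unadjusted p under 0.05 (3.82%), and DESeq2 called 4 of 11284, with 554 unadjusted. Herpud1 had 99.5 and 116 CPM with the drugs, against 152, 164 and 144 CPM without (-0.51 ± 0.18, adjusted p = 0.977). Hyou1 had 559.9 and 369 CPM with the drugs, against 601, 696 and 619.8 CPM without (-0.46 ± 0.20, adjusted p = 0.977). These were the 2 genes of the list with the lowest unadjusted p, named after their values were seen, and passage also differed between the cultures.

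Cultures of 1 group differed among themselves to a degree that varied by gene. The median coefficient of variation of the 37 genes was 13.2% in SIRMu-1, 11.6% in rMC-1 and 15.7% in primary cultures, against 17.6%, 11.8% and 20.1% over all genes. The widest spread in SIRMu-1 was that of Plod1 (46.7%), in rMC-1 that of Sdf2l1 (40.3%) and in primary cultures that of P4ha1 (49.6%). The narrowest was that of Fkbp14 in SIRMu-1 (4.87%), Creb3l1 in rMC-1 (1.30%) and Atf4 in primary cultures (6.29%).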

How the data were processed

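Gene counts of 12 libraries were used. Whole-number counts per gene and library, not normalized, were deposited by the authors. The submitters' processing notes name cutadapt 1.8.1, STAR 2.5.3a, edgeR 3.18.1 and rat build rn6. The annotation and strand setting were not given in the sources used here. Reads of overlapping genes therefore could not be told apart. Rows that name no gene were left out (24.2% to 30.3% outside features, 9.47% to 12.3% multimapping, 1.84% to 2.54% unmapped, 0.15% to 0.19% ambiguous). Libraries held 22582345 to 38125630 reads in genes.

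With edgeR 4.0.16 in R 4.3.3, genes were filtered on low counts over the 3 groups (11321 tested, 5994 not), scaled by TMM and tested with quasi-likelihood over all 12 libraries (9 residual degrees of freedom), with Benjamini-Hochberg adjustment over all genes tested. The SE is the log2 fold change over the root of F. The drugs were tested with SIRMu-1 split by medium (8 degrees of freedom). The scripts were tested on simulated data. Alternatives were DESeq2 1.42.0, other scalings and filters, only the groups compared, a replicate block, libraries of one file-name code summed, only the SIRMu-1 cultures with drugs, and each library left out. Libraries that share such a code (primary 1 and 2, rMC-1 1 and 2, SIRMu-1 1 to 3, SIRMu-1 4 and 5) may share a source. No replicates were alike within sampling noise.

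The 39 genes, the role groups and the pathway and marker lists were chosen with earlier results of these data known. Values per library were given by rule for 8 fixed genes and, per role group and comparison with primary cultures, for up to 2 called genes furthest from 0 among those whose groups do not overlap. From each other list up to 2 called genes furthest from 0 were named per direction. The other genes shown per library (P4ha1, Plod2, Creld2 and, in the rMC-1 comparison, Pdia4, Herpud1) were chosen after their values were seen. Promoters are RefSeq's on GRCr8, and no coordinates were converted.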

Additional observations from a re-analysis of the deposited data

Results flagged for a closer look

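Within groups of 4 or 5 libraries, 74 sets of values over the 37 genes were examined for a library far from the others of its group, and 5 stood apart, where chance gives about 1 in 20. Primary replicate 3 was high in P4hb, at 1967 CPM against 1579 to 1642 CPM in the other primary libraries. Primary replicate 4 was low in Plod1, at 197.3 CPM against 391.8 to 425.6 CPM, and in Xbp1, at 99.03 CPM against 115.5 to 116.7 CPM. SIRMu-1 replicate 5 was low in Ppib, at 366.2 CPM against 460.6 to 496 CPM in the other SIRMu-1 libraries. SIRMu-1 replicate 3 was low in Atf4, at 480.9 CPM against 568.2 to 599.7 CPM. Both of these SIRMu-1 libraries came from cultures with gentamicin and amphotericin B, and the part of the drugs in these values was not tested.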

How the results depend on the processing

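Over 2257 combinations of a gene's comparison and an alternative, 2104 stayed on the same side of the threshold, 62 of them with a changed sign but called neither as reported nor there. A further 108 lost the call, 37 gained one, and 8 called values changed sign or were called in the opposite sign. The last 8 came with library totals: for rMC-1 over primary the log2 fold changes were 0.31 (Hsp90b1), 0.0524 (Pdia6), 0.0416 (Ppib), 0.46 (Sec61a1) and 0.44 (Atf4), and for SIRMu-1 over rMC-1 -0.0723 (Calr), -0.0701 (Plod3) and -0.0694 (Eif2ak3). Library totals moved the calls for rMC-1 over primary to 6 higher, 14 lower and 6 past 2-fold, and those higher in SIRMu-1 than in rMC-1 to 17. In the rMC-1 over primary comparison 2 genes were called higher with only the groups compared, and 3 with file-name codes summed. For SIRMu-1 over primary, 3 were lower with codes summed, 1 was higher with only the drug-treated SIRMu-1 libraries, and 2 were past 2-fold with no filter on low counts. The cause of these moves was not tested.

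Leaving out 1 library gave 3 to 6 higher, 5 to 8 lower and 1 to 2 past 2-fold (the second Plod2, without SIRMu-1 replicate 3, 4 or 5 or primary replicate 2 or 4) for SIRMu-1 over primary, and 1 to 3 higher and 19 to 28 lower for rMC-1 over primary. The 3 came without SIRMu-1 replicate 5 (Creld2, Herpud1 and Pdia4), and 2 without primary replicate 2 (Creld2 and Herpud1) or rMC-1 replicate 2 (Creld2 and Pdia4). For SIRMu-1 over rMC-1 it gave 22 to 29 higher and 2 to 3 lower.

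Deviations of same-numbered libraries correlated at -0.06 to 0.10 in 10 pairs, so the replicate numbers were not taken as pairing. With a replicate block 7 genes were higher, 5 lower and 2 past 2-fold for SIRMu-1 over primary. For rMC-1 over primary 1 was higher and 26 lower, 25 of them among the 27, and 26 were higher in SIRMu-1 than in rMC-1.

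At these depths the low genes are the least precise, and Crtap, with 1 count, gave no value. Whether the annotation used for counting bears on Crtap was not tested. With 3 to 5 cultures per group, a p above the threshold does not show that levels were equal. SIRMu-1 and rMC-1 are each a single line, and the labels do not say which primary cultures shared an animal.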

Other observations

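Markers of further retinal cell types were read in the same libraries. Endothelial markers summed to 181 to 456 CPM in SIRMu-1, 5.00 to 8.74 CPM in rMC-1 and 12.7 to 53.1 CPM in primary cultures. Of 5 tested, 2 were higher (40%) and 1 lower (20%) in SIRMu-1 than in primary cultures, beside 21.7% and 24.4% of all genes. The median of the 8 markers, as log2 of CPM plus 1, was 0.22 to 0.38 in SIRMu-1 and 0.43 to 1.08 in primary cultures. In each SIRMu-1 library 1 to 4 of the 8 had no count. Some of the markers thus made up the SIRMu-1 sum, while others lay near the floor. Microglia and macrophage markers summed to 1.35 to 4.75 CPM in SIRMu-1, 2.53 to 3.99 CPM in rMC-1 and 4.02 to 17.9 CPM in primary cultures. Retinal pigment epithelium markers summed to 2.70 to 4.94 CPM in SIRMu-1, 12.1 to 13.8 CPM in rMC-1 and 11.6 to 34.4 CPM in primary cultures.

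Between SIRMu-1 and primary cultures the other lists of the secretory pathway had genes in both directions. Of 28 other ER folding genes 4 were higher in SIRMu-1 and 5 lower, with Rcn2, an ER calcium-binding protein gene, highest (1.57) and the disulfide isomerase gene Pdia5 lowest (-2.46 ± 0.31). Of 18 COPII export genes 4 were higher, among them the cargo receptor gene Tmed10 (0.60), and 3 lower, among them Mcfd2 (-0.52). Of 15 ER-associated degradation genes none was higher and 3 were lower, with Derl3 lowest (-4.02). Of 7 other membrane-bound factors and proteases Atf6b alone was called, higher in SIRMu-1 (0.63 ± 0.10). All of these calls are at an edgeR adjusted p under the threshold used in the report. Over all genes tested, 21.7% were called higher and 24.4% lower in SIRMu-1. The shares were 14.3% and 17.9% of the ER folding genes and 22.2% and 16.7% of the COPII genes. They were 0% and 20% of the degradation genes and 14.3% and 0% of the membrane-bound factors and proteases.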
